A study of Mus musculus with 6 samples.

Results

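The mesenchymal cells of the *Gli1*- fraction of mouse Achilles tendon were compared between 7 days post-injury (7 dpi) and the uninjured state. A barcode was kept if it held at least 1000 unique molecular identifiers (UMIs, each standing for 1 captured transcript), at least 200 genes and at most 5% mitochondrial UMIs. It was taken as mesenchymal if it held at least 1 UMI of *Pdgfra*, a receptor of fibroblasts and their progenitors, and none of *Ptprc* (CD45, leukocytes) or *Cdh5* (VE-cadherin, endothelium). This gave 6550 cells at 7 dpi and 4657 uninjured cells. The 11207 cells are part of 23012 barcodes past the filters in these libraries and of 63329 in the whole series, in which the same rule finds 29457 mesenchymal cells.

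All mice carried *Gli1*-CreERT2 and the Ai9 reporter, in which Cre switches on tdTomato, and received tamoxifen. The *Gli1*- cells are those that were tdTomato-negative at sorting, so that they had no *Gli1*-driven recombination at the time of tamoxifen, which does not exclude *Gli1* transcripts at a later time. The injury was an Achilles tenotomy, in which the tendon is clamped and cut, and the uninjured group had no tenotomy. The labels list 8 mice per time point and 24 in all, of equal sex distribution and with no age given, and each combination of time point and sort is 1 library of pooled mice, without a map from cells to mice. With 1 library per group there is no spread between mice and no test. Values below are the deposited UMI counts summed over the cells and divided by their total, per 1000000 UMIs (CPM), with 95% intervals that cover counting error only. Where a pair of values is given, the 7 dpi value comes first and the uninjured value follows.

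Tendon holds tenocytes, which make the collagen I fibres, and fibroblasts of the sheath and the surrounding loose connective tissue. After tendon is cut, resident fibroblasts divide, become contractile and secrete a provisional matrix rich in collagen III, tenascins and periostin, which is later remodelled. Injured Achilles tendon in mice can also form cartilage and then bone within the scar, a process called heterotopic ossification. GLI1 is a transcription factor and target gene of Hedgehog signaling, and GNAS encodes the stimulatory G protein subunit that raises cAMP and activates protein kinase A (PKA), the pathway this study examined.

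The libraries differed in depth, with a median of 12252 UMIs and 3638.5 genes per mesenchymal cell at 7 dpi and of 6011 UMIs and 2381 genes in the uninjured cells. The summed UMIs were 85443803 and 31078875. Mesenchymal cells made up 60.1% (59.2 to 61.0) of the barcodes past the filters at 7 dpi and 38.4% (37.6 to 39.3) in the uninjured library. Read after each barcode was thinned to 2000 UMIs, the same rule gave 31.3% and 34.3%, so the order of these shares depended on depth. Of the mesenchymal barcodes, 6 occurred in both libraries. Both libraries held male cells, with 6 and 2 *Xist* UMIs in all and a Y-linked UMI in 78.4% and 72.3% of cells, although the labels state equal sex distribution. *Cntn5*, a neuronal adhesion gene, stood at 183 CPM at 7 dpi and 477 CPM in the uninjured cells, against 0.341 CPM in the *Gli1*- cells at 21 dpi, and was higher still in the endothelial cells of the same libraries (338 and 773 CPM).

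Genes of mesenchyme were read as a check of the label. *Col1a1*, *Col1a2*, *Col3a1* and *Dcn* each exceeded 2600 CPM in both libraries, and the fibroblast transcription factor *Prrx1* stood at 373 and 210 CPM. That level alone does not set the cells apart, since endothelial cells at 7 dpi held *Col1a1* at 2965 and *Col3a1* at 2619 CPM. With 0 UMIs of 9 markers of other cell types required, 3293 of the 6550 cells at 7 dpi and 2531 of the 4657 uninjured cells remained. Markers of other cell types were present at differing levels, erythroid and Schwann cell markers most of all in the uninjured cells. The 9 endothelial markers summed to 57.6 CPM at 7 dpi and 198 CPM in the uninjured cells, the 5 erythroid markers to 77.2 and 715 CPM, and the 12 skeletal muscle markers to 27.9 and 92.3 CPM. The 12 epidermal markers summed to 120 and 33.6 CPM, with *Krt5* and *Krt14* at 8.85 and 34.3 CPM at 7 dpi and both at 0 in the uninjured cells. Most of the uninjured sum came from *Krtdap*, which was lower at 7 dpi (6.28 and 13.1 CPM), and from *Krt10* (18.2 and 11.5 CPM) and *Dmkn* (11.1 and 6.69 CPM), which were higher by less than 2-fold. For the 13 macrophage and dendritic markers the sums were 8.99 and 26.6 CPM, with *C1qa*, *C1qc* and *Ms4a7* at 0 in the uninjured cells. Most of the uninjured sum was *Lyz2* (2.25 and 21.4 CPM), and *Cd68*, *Tyrobp*, *Fcer1g* and *Adgre1* were also lower at 7 dpi. *Cd74* (0.983 and 0.290 CPM), *H2-Ab1* (1.54 and 0.193 CPM), *Mrc1* (1.15 and 0.129 CPM), *H2-Aa* and *C1qb* were higher at 7 dpi. The 6 neutrophil markers summed to 8.10 and 3.86 CPM, and *Ly6g* was at 0 in the uninjured cells. For the 10 T and lymphoid markers the sums were 8.04 and 2.61 CPM, with *Cd3e* and *Cd3g* at 0 in both. Most of the 7 dpi sum came from the T cell receptor genes *Trdc* (4.99 and 0.0644 CPM) and *Trbc2* (2.31 and 0.0322 CPM). The 4 mast cell markers summed to 0.971 and 1.35 CPM, with *Tpsb2* at 0 in both. The 7 pericyte and smooth muscle markers stood at 146 and 261 CPM, and the 7 Schwann cell markers at 292 and 489 CPM, most of it *Pmp22* (260 and 374 CPM), which fibroblasts also express. The part of these transcripts in the differences below was not tested.

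Free RNA is a further limit. Endothelial cells of the same libraries, defined after the data were seen by at least 2 UMIs each of *Cdh5* and *Pecam1* and none of *Pdgfra* or *Ptprc*, gave the background. There were 457 such cells at 7 dpi and 2041 in the uninjured library, with medians of 4624 and 3599 UMIs. Collagen and matricellular transcripts were found in them at 7 dpi as well. As a share of the mesenchymal level they reached 16.1% for *Col1a1*, 14.7% for *Col3a1*, 19.5% for *Postn*, 24.1% for *Tnc*, 17.8% for *Tnn* and 21.7% for *Acan*. Such shares compare CPM between cells of unlike depth, with medians at 7 dpi of 4624 UMIs in endothelial and 12252 UMIs in mesenchymal cells. They are not shares of UMIs per cell. Among the 508 genes that were at least 2-fold higher and at 50 CPM or more at 7 dpi, the endothelial level had a median of 55.2% of the mesenchymal level (quartiles 24.7% and 87.7%), and 99 had a higher level in endothelial cells. The endothelial cells themselves had 1031 of 10935 tested genes at least 2-fold higher at 7 dpi (9.43%) and 960 lower (8.78%). For the 15 largest increases named below this share ranged from 11.4% to 26.1%. Endothelial values are given for some of the genes below, and the part of free RNA in each difference was not tested.

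Of 10645 genes with a mean of at least 5 CPM over both libraries, 1094 were at least 2-fold higher at 7 dpi (10.3% of those tested) and 1263 at least 2-fold lower (11.9%). With TMM scaling, which assumes that most genes do not change, 1435 (13.5%) were higher and 1004 (9.43%) lower. The share of higher genes among these calls was thus 46.4% by CPM and 58.8% by TMM. TMM moved every log2 ratio by 0.17, and the median over all tested genes was -0.06 by CPM and 0.11 by TMM. Large differences were common in both directions, with 338 genes at least 4-fold higher and 331 at least 4-fold lower, and with 163 and 94 beyond 8-fold. Because both libraries contribute 1 value per gene, such counts describe these libraries and not the conditions. Since depth differed, each ratio was also computed in cells of 3000 to 10000 UMIs, a depth window that held 2237 cells at 7 dpi and 3788 uninjured cells. There 707 genes were at least 2-fold higher and 725 lower. Of the 216 named genes past 2-fold, 214 kept their sign and 164 stayed past 2-fold in this window. Ratios in the window differed from those over all cells for many other genes as well. Genes named below whose 2-fold call was lost or gained in the window are pointed out, and the parts of depth and of the kind of cell in the window were not tested. The shares 10.3% and 11.9% are the background against which the gene lists below are read.

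**Figure D1:**
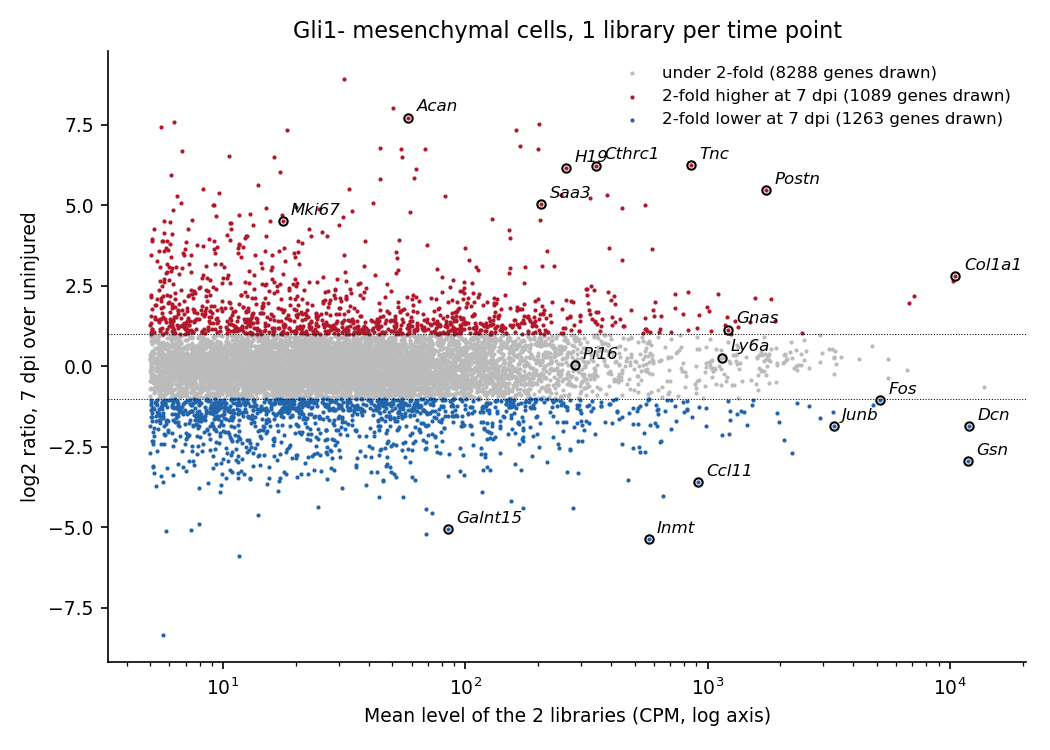
Each point is 1 tested gene, with its mean level over both libraries in CPM (log axis) against the log2 ratio of 7 dpi over uninjured. Red points are at least 2-fold higher and blue points at least 2-fold lower at 7 dpi, dotted lines mark 2-fold, circled genes are named, and 5 genes with 0 UMIs in the uninjured cells are not drawn. *Tnc*, *Postn* and *Cthrc1* combine a high level with a log2 ratio above 5, while *Gsn*, *Dcn* and *Inmt* stand far below 0.

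The 15 largest increases were taken among genes with a mean of at least 50 CPM. *Postn*, which encodes the matrix protein periostin, stood at 3418 CPM at 7 dpi and 76.3 CPM in the uninjured cells, a 44.8-fold difference (log2 5.48, 5.43 to 5.54). *Tnc*, encoding tenascin C of provisional matrix, was at 1686 and 22.3 CPM (75.7-fold). *Cthrc1*, a secreted protein of collagen-producing scar fibroblasts, was at 684 and 9.11 CPM (75.1-fold). The levels of all 3 genes in uninjured cells were under 80 CPM, their log2 ratios in the depth window were 6.05, 6.02 and 6.70, and their 7 dpi levels were also above those of endothelial cells at 7 dpi (666, 406 and 130 CPM).

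*Tnn*, encoding tenascin W, which is found mainly around developing and remodelled connective tissue, was at 332 CPM at 7 dpi and 2.90 CPM before injury (115-fold, log2 6.84). The log2 ratio of Tnn was 9.50 once barcodes called doublets were removed and 5.64 in the depth window. *Lrrc15*, a membrane protein of activated myofibroblasts, was at 107 and 0.997 CPM, and *Fbn2*, the fibrillin of developing microfibrils, at 135 and 1.25 CPM. *C1qtnf3*, a secreted C1q/TNF-related protein first described in cartilage, was at 403 and 2.19 CPM. *Acan*, encoding the cartilage proteoglycan aggrecan, showed 116 CPM at 7 dpi against 0.547 CPM, which is 17 UMIs in 4657 uninjured cells (212-fold, log2 7.73, 7.05 to 8.51). Over all cells the largest of the 15 ratios belonged to the kinesin gene *Kif26b*, at 100.3 and 0.386 CPM (log2 8.02, 7.21 to 8.97). In the depth window the log2 ratios of the 15 ranged from 4.90 to 9.29, with *Acan* (9.29) above *Kif26b* (6.48).

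The remaining 6 of these 15 differed in kind. *Slpi*, a leukocyte protease inhibitor, was at 322 and 1.99 CPM, and *Cxcl5*, a neutrophil chemokine, at 396 and 3.70 CPM. *Crabp2*, which carries retinoic acid to its nuclear receptor, was at 108 and 1.19 CPM. *H19*, the imprinted non-coding RNA of fetal tissues, was at 514 CPM at 7 dpi and 7.18 CPM in uninjured cells (71.6-fold), with 102 and 0.797 CPM in endothelial cells. *Brinp3* stood at 124 and 1.77 CPM and *8030451A03Rik* at 121 and 2.09 CPM.

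There were 5 tested genes without any UMI in the uninjured cells, all named here after their values were seen. *Il1rl1*, which encodes the interleukin 33 receptor ST2, had 4013 UMIs at 7 dpi, or 47.0 CPM. Against a floor of 3 UMIs in the whole uninjured sum this is at least 487-fold higher. The granzyme genes *Gzme* and *Gzmc*, best known from cytotoxic lymphocytes, stood at 23.5 and 10.7 CPM, at least 243-fold and 110-fold above the floor. Of the lymphoid markers, *Trdc* (4.99 CPM) and *Trbc2* (2.31 CPM) were also far above their uninjured levels, *Cd3e*, *Cd3g* and *Nkg7* were at 0 at 7 dpi, and the part of lymphoid RNA in the granzyme values was not tested. Endothelial cells at 7 dpi had 4.25 CPM of *Il1rl1*, 3.90 of *Gzme* and 0.354 of *Gzmc*. The keratins *Krt14* and *Krt2* completed the set, at 34.3 and 10.4 CPM, and belong to epidermis. In endothelial cells at 7 dpi *Krt14* was at 22.7 CPM, which is 66.0% of its mesenchymal level.

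Fibrillar collagens, the rope-like collagens that carry tensile load, were higher as a list. Of 11 members tested, 10 were at least 2-fold higher and 0 lower, with a median log2 ratio of 2.26 (2.42 by TMM) against -0.06 over all genes. *Col1a1* was at 18449 CPM at 7 dpi and 2660 CPM in uninjured cells (6.93-fold, log2 2.79). *Col3a1*, the collagen of early scar, was at 17763 and 2807 CPM (6.33-fold), and *Col1a2* at 10840 and 2759 CPM (3.93-fold). The list summed to 51126 CPM at 7 dpi and 9099 CPM before injury. Of the minor fibrillar collagens, *Col24a1* at 80.5 and 2.38 CPM and *Col11a1* at 389 and 16.7 CPM had larger ratios from lower levels. *Col27a1*, at 139 and 43.1 CPM, had a smaller ratio (3.23-fold) than *Col1a1*, *Col3a1* and *Col1a2*. *Col5a3* stood at 333 and 163 CPM, and *Col11a2*, a cartilage collagen, at 7.82 and 4.92 CPM was the member under 2-fold (log2 0.67, and 1.16 in the depth window). In endothelial cells *Col1a1* was at 2965 CPM at 7 dpi and 125 CPM in the uninjured library, and the same list had a median of 3.74 there. The mesenchymal median in the depth window was 2.93.

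The enzymes and chaperones that build these collagens followed, with 19 of 32 members at least 2-fold higher, 1 lower and a median of 1.20. *P4ha3*, a subunit of the prolyl hydroxylase that stabilises the collagen helix, was at 99.6 CPM at 7 dpi and 6.56 CPM in uninjured cells (log2 3.92). *Lox*, which starts collagen crosslinking, was at 559 and 99.5 CPM, *Plod2*, the lysyl hydroxylase of scar-type crosslinks, at 525 and 113 CPM, and *P3h1* at 100.2 and 21.4 CPM. In contrast *P4ha1*, another catalytic subunit of prolyl hydroxylase, was at 140 and 122 CPM, and *Mia3*, which loads procollagen at the endoplasmic reticulum exit, at 144 and 146 CPM. *Pcolce2*, an enhancer of procollagen cleavage, was the member called lower, at 60.4 and 342 CPM. Genes of general folding and secretion in the endoplasmic reticulum had 20 of 46 members higher, 0 lower and a median of 0.86. *Sec61b*, a part of the translocation channel, was at 671 and 148 CPM and *Ckap4* at 313 and 76.5 CPM. At the low end of the list, *Ddit3* (36.3 and 51.5 CPM), *Herpud1* (74.7 and 116 CPM) and *Atf6* (85.6 and 156 CPM) had lower values at 7 dpi without reaching 2-fold. These are genes of the unfolded protein response, whose other members are not given singly here.

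Other collagens were split, with 9 of 19 higher and 5 lower. *Col12a1*, which binds to the surface of collagen I fibrils, was at 725 CPM at 7 dpi and 56.5 CPM before injury, and *Col8a2* at 25.9 and 3.15 CPM. The cartilage collagens *Col9a1* (11.1 and 0.0644 CPM) and *Col9a3* (13.0 and 1.45 CPM) were also higher. The basement membrane collagens went the other way, *Col4a1* at 274 and 936 CPM, *Col4a2* at 191 and 444 CPM and *Col4a5* at 12.2 and 35.7 CPM. In the depth window these ratios shrank to -0.37, 0.07 and -0.40, so that the direction for *Col4a2* did not hold. In endothelial cells *Col4a1* was instead higher at 7 dpi (1453 against 501 CPM). *Col6a6* was at 16.5 and 67.6 CPM, with a log2 ratio of -0.84 in the depth window.

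Matricellular and provisional matrix genes had 17 of 28 members higher and 4 lower, with a median of 1.37. The 4 members called lower were *Tnxb*, the tenascin of loose connective tissue, at 145 and 912 CPM, *Sparcl1* at 152 and 953 CPM, the hyaluronan synthase *Has1* at 371 and 764 CPM and *Ccn3* at 53.2 and 108 CPM. *Has1* (log2 -0.17) and *Ccn3* (-0.78) were under 2-fold in the depth window. Tenascins were thus divided, with *Tnc* and *Tnn* higher and *Tnxb* lower at 7 dpi. Elastic fibre and microfibril genes had 8 of 18 higher and 2 lower, including *Mfap4* (301 and 49.9 CPM), *Ltbp2* (43.9 and 8.85 CPM) and *Emilin1* (158 and 31.5 CPM) among the higher. The 2 lower genes were *Efemp1* (58.5 and 220.1 CPM) and *Ltbp4* (133 and 446 CPM, log2 -0.48 in the depth window), and *Fbln5*, which guides elastin assembly, was at 135 and 225 CPM.

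Small leucine-rich proteoglycans, which coat collagen fibrils and set their diameter, had a median of -1.18 over 12 members (-1.01 by TMM), close to that of the adventitial list described below (-1.17), with 4 higher and 7 lower. *Dcn*, encoding decorin, was at 5201 CPM at 7 dpi and 18903 CPM in uninjured cells (3.63-fold lower). *Ecm2* was at 42.0 and 151 CPM (log2 -0.89 in the depth window), *Omd* at 4.40 and 21.3 CPM and *Chad* at 3.27 and 19.3 CPM. The higher members were *Bgn*, encoding biglycan, at 2954 and 694 CPM, *Aspn* at 973 and 246 CPM, *Kera* at 10.3 and 1.38 CPM, and *Fmod* at 127 and 56.4 CPM. Decorin and biglycan, which are close relatives, therefore differed in opposite directions, and did so in the depth window too (log2 -1.17 and 2.25), where the median of the list was -0.18. Endothelial cells held *Dcn* at 608 and 687 CPM and *Bgn* at 677 and 108 CPM.

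**Figure D2:**
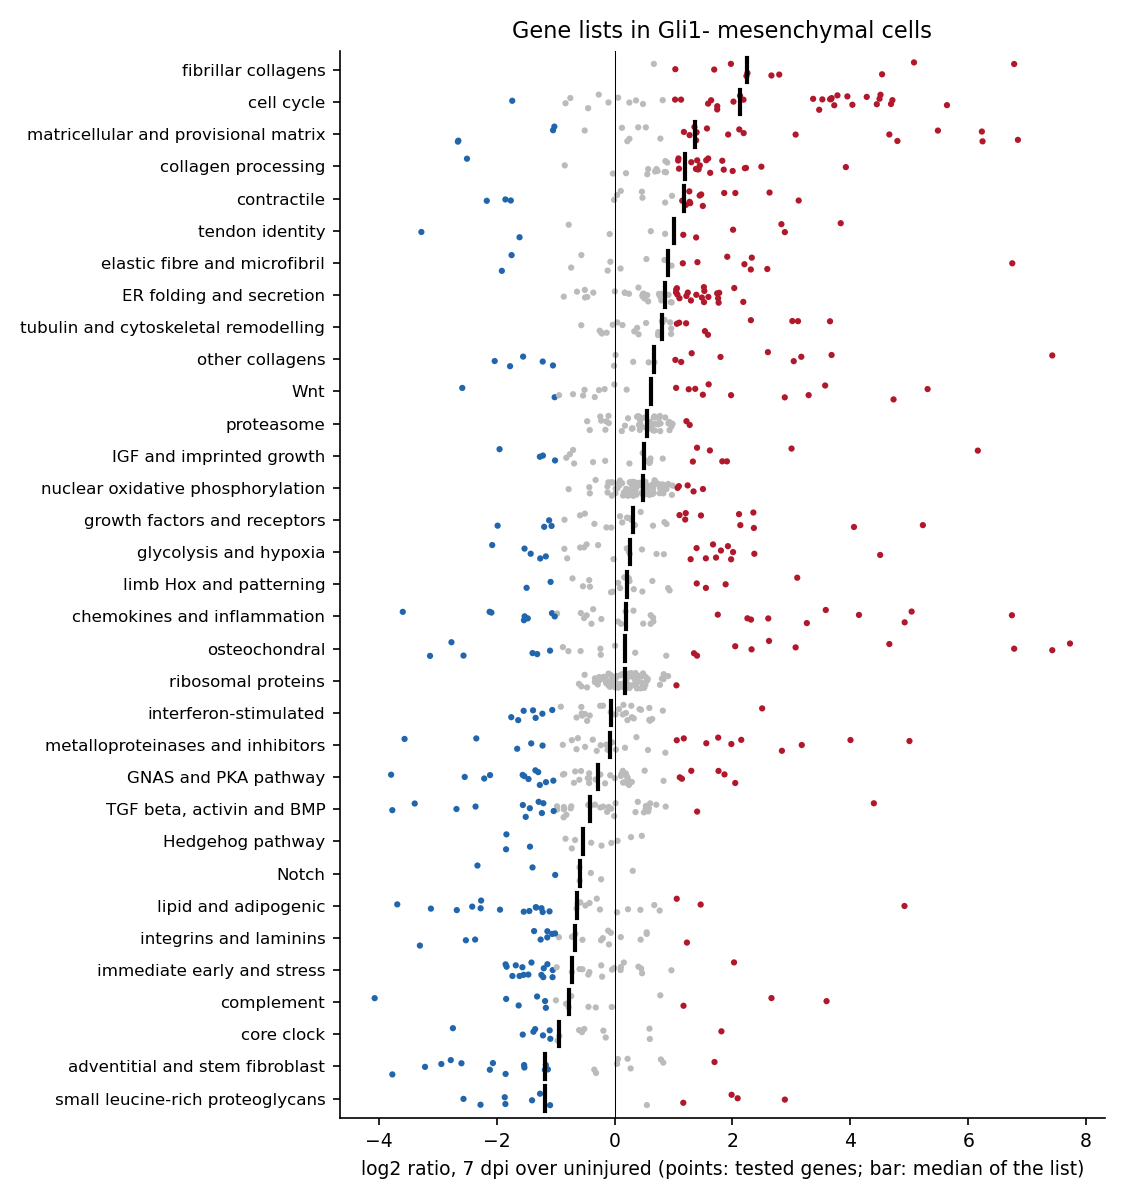
Each point is the log2 ratio of 7 dpi over uninjured of 1 tested gene in 1 of 33 lists, with red for at least 2-fold higher and blue for at least 2-fold lower, and the black bar is the median of the list. The list member *Il1rl1*, with 0 UMIs in the uninjured cells, is not drawn. Fibrillar collagens (median 2.26) and cell cycle genes (2.13) lie at the top, and small leucine-rich proteoglycans (-1.18) and adventitial fibroblast genes (-1.17) at the bottom.

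Cell cycle genes were the other list with a median above 2. Of 37 tested members 26 were at least 2-fold higher and 1 lower, with a median of 2.13. *Mki67*, a marker of dividing cells, was at 33.8 CPM at 7 dpi and 1.48 CPM in uninjured cells (22.8-fold). *Top2a*, which untangles chromosomes, was at 33.8 and 1.29 CPM, *Cdk1*, the mitotic kinase, at 22.4 and 0.869 CPM, and *Pclaf*, a PCNA-binding factor of S phase, at 27.3 and 0.547 CPM. The inhibitor *Cdkn1a* was the member called lower, at 36.6 and 122 CPM. Members under 2-fold included the replication genes *Pcna* at 37.8 and 51.5 CPM and *Mcm4* at 18.6 and 31.2 CPM (log2 -0.75, and -1.37 in the depth window). In the depth window the median of the list was 1.05 and *Mki67* had a log2 ratio of 3.98. Endothelial cells showed division as well, with *Mki67* at 71.9 CPM at 7 dpi and 3.42 CPM in the uninjured library. When the 887 cells with at least 2 of 6 cycling markers at 7 dpi and the 7 such uninjured cells were left out, 1000 of the 1094 higher and 1174 of the 1263 lower genes still passed 2-fold.

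Genes of mitosis often share 2 short promoter elements, the CCAAT box and the cell cycle homology region. RefSeq promoters (250 bases before to 50 after the start, GRCm38.p6) were found for 37 of the 47 members of the list and for 23 of the 26 higher ones. CCAAT was present on either strand in 20 of their 25 promoters (80.0%), against 37.4% of all 32851 promoters, and TTTGAA in 10 (40.0%), against 17.9%. CCAAT was not particular to the higher genes, since it was in 31 of the 42 promoters of the whole cell cycle list (73.8%) and in 16 of the 21 promoters of the core clock list described below (76.2%). TTTGAA was in 14 of the 42 promoters of the whole cell cycle list (33.3%). The 10 genes with both were *Top2a*, *Cdk1*, *Mki67*, *Cenpf*, *Ube2c*, *Ccnb2*, *Cenpa*, *Cdc20*, *Kif11* and *Mcm2*, while 6.95% of all promoters hold both. The E2F letters TTTCGCGC and TTTGGCGC were in 3 (12%) and 2 (8%) of the 25 against 0.323% and 0.514% of all, and neither run holds CCAAT or TTTGAA. In the whole cell cycle list these letters were in 4 (9.52%) and 3 (7.14%) of the 42 promoters. A match shows that the letters are in the window and not that a factor binds them. The 4 promoters below are examples chosen from the 10 genes with both, each of a gene more than 10-fold higher at 7 dpi, with CCAAT and TTTGAA on either strand in capitals.
*Top2a*, chr11:99024140-99024439, minus strand: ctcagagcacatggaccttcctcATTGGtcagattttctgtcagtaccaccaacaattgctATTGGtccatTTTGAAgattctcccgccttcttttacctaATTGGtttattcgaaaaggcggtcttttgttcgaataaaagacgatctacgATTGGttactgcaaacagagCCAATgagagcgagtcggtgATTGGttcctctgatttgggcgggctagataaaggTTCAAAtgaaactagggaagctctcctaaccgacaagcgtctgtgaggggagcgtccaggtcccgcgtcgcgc
*Cdk1*, chr10:69352863-69353162, minus strand: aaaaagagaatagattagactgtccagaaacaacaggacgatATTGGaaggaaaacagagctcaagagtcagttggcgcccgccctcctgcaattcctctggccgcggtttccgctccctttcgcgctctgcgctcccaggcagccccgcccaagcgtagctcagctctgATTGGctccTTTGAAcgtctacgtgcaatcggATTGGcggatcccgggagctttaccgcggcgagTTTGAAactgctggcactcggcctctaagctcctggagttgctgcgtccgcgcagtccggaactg
*Mki67*, chr7:135716330-135716629, minus strand: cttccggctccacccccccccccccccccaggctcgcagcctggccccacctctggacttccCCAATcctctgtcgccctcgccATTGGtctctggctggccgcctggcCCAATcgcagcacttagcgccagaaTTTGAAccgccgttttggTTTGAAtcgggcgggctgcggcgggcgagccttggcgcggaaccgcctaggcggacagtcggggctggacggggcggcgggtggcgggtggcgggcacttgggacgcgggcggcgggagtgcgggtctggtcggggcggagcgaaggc
*Ccnb2*, chr9:70421505-70421804, minus strand: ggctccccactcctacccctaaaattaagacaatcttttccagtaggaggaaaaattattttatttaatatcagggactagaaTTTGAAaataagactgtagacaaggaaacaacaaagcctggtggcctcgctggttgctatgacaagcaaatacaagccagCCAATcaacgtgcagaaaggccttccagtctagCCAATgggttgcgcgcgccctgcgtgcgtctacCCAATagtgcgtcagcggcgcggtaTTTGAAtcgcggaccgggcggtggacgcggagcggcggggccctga

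The 15 largest decreases, again among genes with a mean of at least 50 CPM, included metabolic enzymes, lipid transporters and secreted factors. *Inmt*, a methyltransferase for small amines, was at 27.1 CPM at 7 dpi and 1116 CPM in uninjured cells (41.2-fold lower, log2 -5.37, and -3.52 in the depth window). *Hsd11b1*, which regenerates active glucocorticoid inside the cell, was at 16.2 and 291 CPM (18.0-fold lower). *Dpyd*, the first enzyme of pyrimidine breakdown, was at 14.7 and 219 CPM. *Ccl11*, the eosinophil chemokine eotaxin, was at 139 and 1680.2 CPM (12.1-fold lower), and *C7*, a component of the complement pore, at 6.21 and 104 CPM.

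The lipid transporter genes *Abca8a* (75.8 and 1237 CPM) and *Abca8b* (25.2 and 533 CPM) are close paralogs, so that reads may be split between them, and both were lower. *Myoc*, encoding the secreted protein myocilin, was at 75.3 and 860 CPM, *Lvrn*, a membrane aminopeptidase, at 15.5 and 329 CPM, and *Nmb*, the neuropeptide neuromedin B, at 9.88 and 114 CPM. *Rtn1*, a reticulon of the endoplasmic reticulum, was at 5.96 and 139 CPM, *Rtl4* at 3.62 and 134 CPM and *Ppl*, encoding periplakin, at 10.2 and 110 CPM. *Galnt15*, a glycosyltransferase, was at 4.92 and 164 CPM and *Fmo2*, a flavin monooxygenase, at 6.10 and 131 CPM. Endothelial cells of the uninjured library held more of the last pair than mesenchymal cells did (*Galnt15* 237 CPM, *Fmo2* 525 CPM), whereas *Inmt* (46.7 CPM), *Lvrn* (9.11 CPM) and *Hsd11b1* (12.2 CPM) were low there. All 15 had smaller differences in the depth window, with log2 ratios from -3.98 to -1.71.

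Markers of adventitial and stem-like fibroblasts, the progenitors that surround vessels and tendon sheaths, were mostly lower, with 13 of 22 members at least 2-fold lower, 1 higher and a median of -1.17. *Gsn*, encoding the actin-severing protein gelsolin, was at 2756 and 21113 CPM (7.66-fold lower) and was the most abundant of the list. *Dpp4* (CD26) was at 15.6 and 94.4 CPM and the proprotein convertase *Pcsk6* at 47.8 and 328 CPM. Over all cells *Pi16* (287 and 278 CPM, log2 0.04) and *Ly6a*, which encodes Sca1 (1259 and 1042 CPM, log2 0.27), were under 2-fold. *Cd248* was at 286 and 166 CPM, and *Thy1*, at 96.9 and 29.9 CPM, was the member called higher. In the depth window the decreases were smaller, with a median of -0.26 for the list and log2 ratios of -1.20 for *Gsn* and -1.22 for *Dpp4*. There *Pi16* (log2 1.07), *Ly6a* (1.09) and *Cd248* (1.45) were past 2-fold higher at 7 dpi, so that the calls for these 3 genes differed between the window and all cells.

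**Figure D3:**
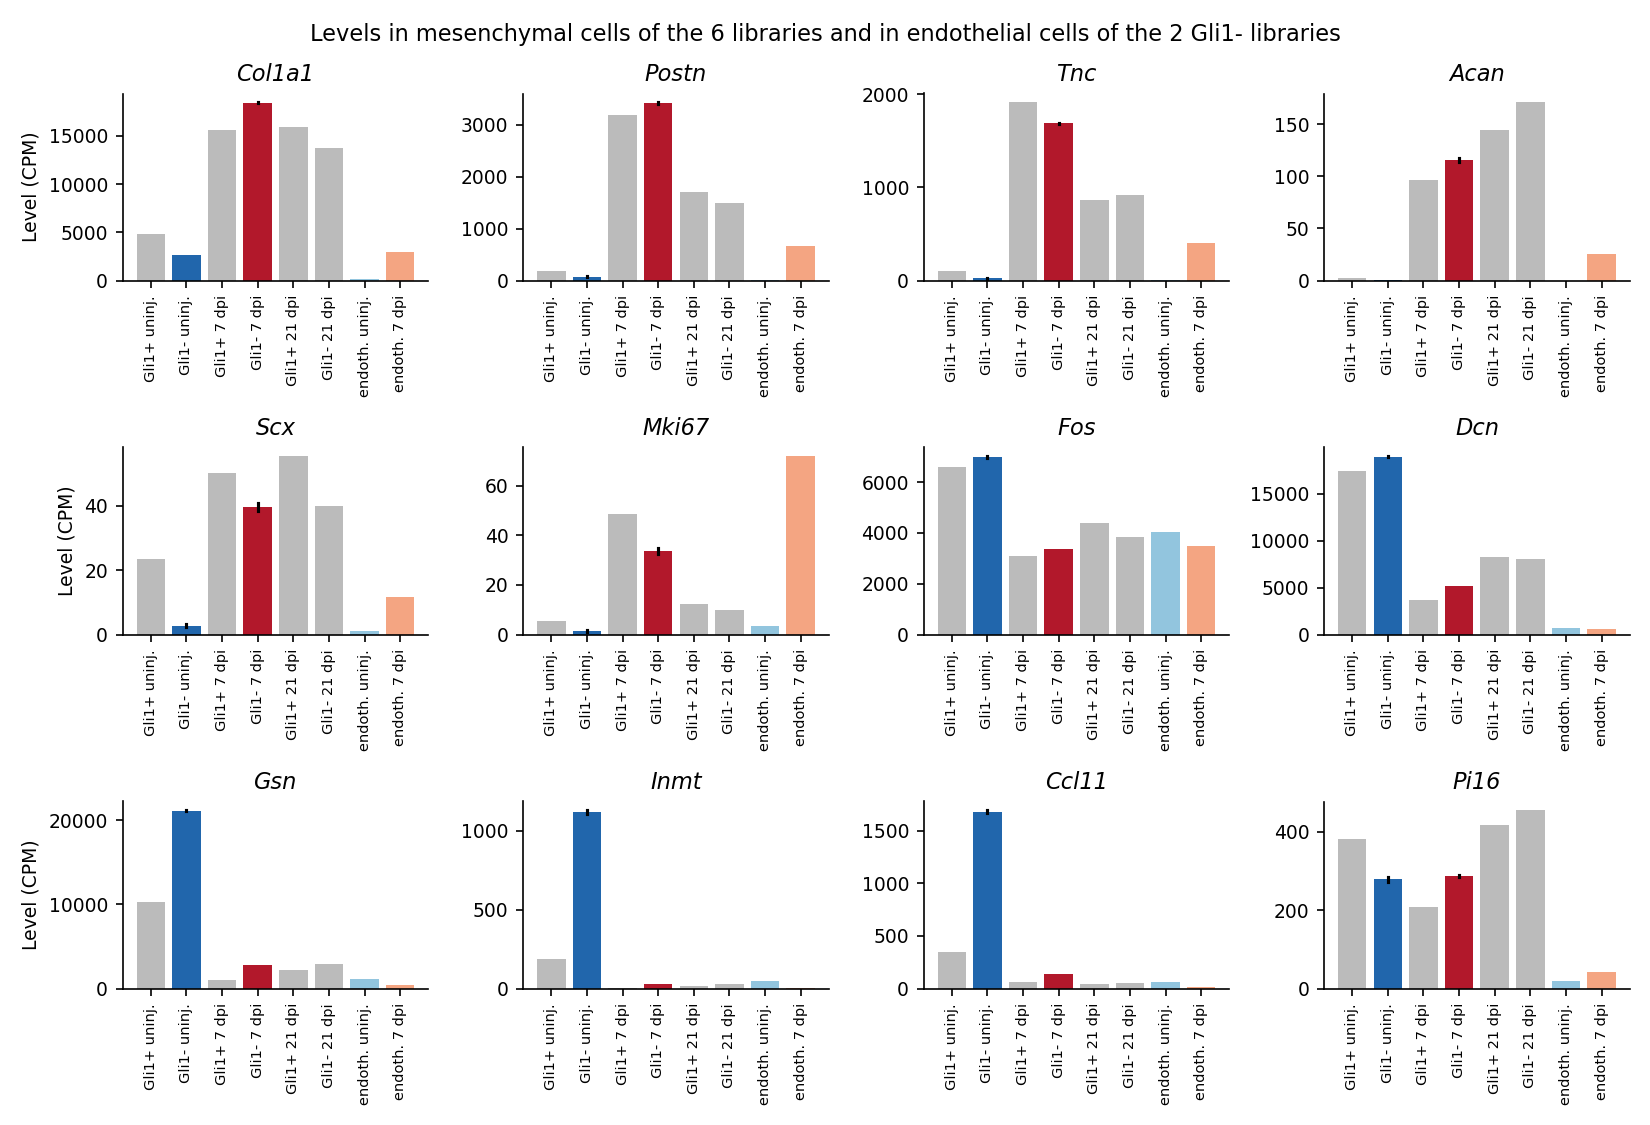
Bars are levels in CPM of 12 genes in the mesenchymal cells of all 6 libraries and in endothelial cells of the *Gli1*- libraries, with 95% counting intervals drawn on the uninjured (blue) and 7 dpi (red) *Gli1*- bars. *Col1a1*, *Postn*, *Tnc* and *Acan* are high in the 7 dpi and 21 dpi libraries, *Gsn*, *Inmt* and *Ccl11* in the uninjured ones, and *Pi16* lies between 207 and 454 CPM in all 6.

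The tendon identity list had 6 of 12 members higher, 2 lower and a median of 1.01. Its sum was lower at 7 dpi, at 3176 CPM against 5553 CPM in uninjured cells, and *Egr1* was the largest part of the uninjured sum. Among the higher members, *Scx*, *Tnmd* and *Mkx* stood at low levels. *Scx*, encoding the tendon transcription factor scleraxis, was at 39.5 CPM at 7 dpi and 2.77 CPM in uninjured cells (14.3-fold). *Tnmd*, a membrane protein of mature tenocytes, was at 74.6 and 10.5 CPM (7.12-fold), and *Mkx*, another tendon transcription factor, at 9.60 and 2.38 CPM. *Egr1* was lower at 1431 and 4369 CPM, as was *Angptl7* at 8.10 and 78.4 CPM, and the lubricin gene *Prg4* stood at 483 and 512 CPM (log2 -0.08, and 0.48 in the depth window). Endothelial cells at 7 dpi held *Scx* at 11.7, *Tnmd* at 23.4 and *Fmod* at 39.3 CPM, from 29.6% to 31.3% of the mesenchymal levels, a higher fraction than for *Col1a1*. *Scx* had a log2 ratio of 2.98 and *Fmod* one of 0.84 in the depth window.

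Osteochondral genes were divided, with 10 of 24 higher, 6 lower and a median of 0.18. Several cartilage matrix genes were on the higher side, while *Chad*, encoding the cartilage protein chondroadherin, was lower as given above. *Col2a1* was at 88.3 and 0.804 CPM (log2 6.78, 6.22 to 7.41), with 14.5 CPM in endothelial cells at 7 dpi. It was carried by few cells, at 2.98% of mesenchymal and 3.21% of endothelial cells at 7 dpi after thinning. In the uninjured library these shares were 0.0878% and 0%. The share of mesenchymal cells with *Col2a1* at 7 dpi was thus not above that of endothelial cells. *Hapln1*, which links aggrecan to hyaluronan, was at 17.9 and 0.708 CPM. The transcription factors moved less. *Runx2*, required for bone formation, was at 90.9 and 35.7 CPM (log2 1.35, and 0.82 in the depth window), and *Sox9*, required for cartilage formation, at 81.8 and 44.5 CPM (log2 0.88, reversing to -0.15 in the depth window). The lower members included *Phex*, a regulator of phosphate in bone (1.40 and 12.3 CPM), *Alpl*, encoding alkaline phosphatase (10.3 and 27.0 CPM, log2 -0.69 in the depth window), and *Bglap*, encoding osteocalcin (5.14 and 34.9 CPM). *Bglap* was carried by few cells, at 0.25% of cells at 7 dpi and 0.24% of uninjured cells after thinning, and its log2 ratio was -0.43 in the depth window and 0.25 in cells without UMIs of other cell types.

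Contractile genes had 12 of 22 members higher, 3 lower and a median of 1.18. *Acta2*, the actin of myofibroblasts and smooth muscle, was at 491 and 177 CPM (log2 1.47), *Palld* at 416 and 47.7 CPM, *Actn1* at 170.1 and 27.5 CPM and *Tpm1* at 419 and 101 CPM. The 3 lower members are genes of differentiated muscle, *Myh11* at 24.7 and 89.2 CPM, *Des* at 14.2 and 63.8 CPM and *Lmod1* at 3.29 and 11.1 CPM. For the list the median in the depth window was 0.60. For *Acta2*, endothelial cells were at 322 and 286 CPM. In the tubulin and cytoskeleton list 9 of 29 were higher and 0 lower, led by *Csrp2* (1093 and 86.7 CPM), *Marcksl1* (68.7 and 7.95 CPM) and *Tubb2b* (136 and 16.8 CPM).

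Hedgehog pathway genes had 0 of 12 members higher and 3 lower, with a median of -0.53. *Gli1* itself was at 2.48 CPM at 7 dpi and 8.88 CPM in the uninjured cells, a 3.58-fold lower level (log2 -1.84, -2.10 to -1.58) that rests on 212 UMIs in 6550 cells and 276 UMIs in 4657 cells. *Hhip*, a pathway inhibitor and target gene, was called lower as well, at 2.84 and 10.1 CPM. Neither stayed past 2-fold in the depth window, where the log2 ratios were -0.51 for *Gli1* and -0.27 for *Hhip*. *Ptch1*, the receptor and a target gene, was at 22.6 and 26.4 CPM (log2 -0.22). The co-receptors *Gas1* (450 and 327 CPM), *Cdon* (75.9 and 73.2 CPM) and *Boc* (37.6 and 66.8 CPM) and the transducers *Smo* (46.4 and 38.3 CPM) and *Sufu* (18.3 and 18.98 CPM) stayed within 2-fold.

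In the GNAS and PKA list 6 of 46 members were higher and 12 lower, with a median of -0.28 by CPM and -0.11 by TMM. *Gnas* was at 1678 CPM at 7 dpi and 760 CPM in uninjured cells (2.21-fold, log2 1.14, 1.12 to 1.16), and was detected in 87.6% and 74.8% of cells thinned to 2000 UMIs. In endothelial cells *Gnas* was at 960 and 958 CPM, and in the depth window its mesenchymal log2 ratio was 1.18. The log2 ratio of *Gnas* was 1.24 in cells with a *Pi16* or *Dpp4* UMI and 1.02 in cells without. Among cells with an *Scx* UMI, 1326 and 39 in number, *Gnas* was at 1273 and 1065 CPM (log2 0.26, 0.12 to 0.40). *Gli1*+ mesenchymal cells held *Gnas* at 1561 and 1399 CPM. *Prkaca*, the catalytic subunit of PKA, was at 23.5 and 20.3 CPM (log2 0.21). The other members called higher included *Pth1r*, the parathyroid hormone receptor that signals through GNAS (42.3 and 10.2 CPM), *Creb3l1* (83.4 and 33.8 CPM) and the cAMP-degrading enzymes *Pde4d* (324 and 88.9 CPM) and *Pde3b* (34.3 and 10.1 CPM). The last pair fell under 2-fold in the depth window (log2 0.61 and 0.77). Among those lower were the receptors *Adra1a* (4.19 and 57.9 CPM) and *Adora2b* (5.76 and 26.6 CPM), the anchoring protein *Akap12* (56.1 and 243 CPM) and *Rapgef3*, a cAMP-gated exchange factor (3.01 and 17.5 CPM). Membership in this list does not show that a receptor signals through GNAS. *Rapgef3* had 146 CPM in uninjured endothelial cells.

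Immediate early and stress genes, which respond rapidly to growth factors, cAMP and tissue dissociation, had 15 of 33 members lower, 1 higher and a median of -0.72. *Fos* was at 3369 and 6980 CPM (log2 -1.05), *Junb* at 1444 and 5194 CPM (log2 -1.85), *Klf2* at 913 and 3034 CPM and *Socs3* at 638 and 2270 CPM. The list summed to 23539.6 CPM at 7 dpi and 52130.3 CPM in uninjured cells. The member called higher was *Nr4a2*, a nuclear receptor, at 103 and 25.3 CPM, and *Fosl1* was at 18.7 and 9.56 CPM (log2 0.97, reversing to -0.32 in the depth window). In the depth window the median was -0.50, *Fos* had a log2 ratio of -0.50 and *Junb* one of -1.23. In endothelial cells *Fos* was at 3490 and 4020.5 CPM and *Junb* at 1679 and 3042 CPM, and the list's median there was -0.43. The labels do not give the handling times of either sort, so handling and injury cannot be told apart in these genes.

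Core clock genes had 7 of 17 members lower, 1 higher and a median of -0.94. The output factors *Dbp* (75.6 and 196.02 CPM), *Hlf* (25.5 and 170.3 CPM) and *Tef* (26.8 and 78.9 CPM) were lower, as was the nuclear receptor *Rora* (464 and 1181 CPM). *Arntl*, encoding the activator BMAL1, was the member called higher, at 16.7 and 4.76 CPM (log2 1.81, and just under 2-fold in the depth window). Endothelial cells had the same order of both kinds of gene (*Arntl* 11.3 and 4.67 CPM, *Dbp* 96.4 and 215 CPM). In the depth window the median was -0.47, and of the 4 lower genes named *Hlf* stayed 2-fold lower (log2 -1.75), while *Tef* (-0.93), *Rora* (-0.84) and *Dbp* (-0.52) did not. The hour of collection is not given, and time of day and injury cannot be told apart here. The E-box CACGTG, which BMAL1 complexes bind, was in 3 of the 7 RefSeq promoters of 6 of these 7 lower genes (42.9%), against 7.15% of all promoters, and was also in 6 of the 21 promoters of the whole clock list (28.6%) and in 6 of the 33 of the immediate early list (18.2%). The 3 belong to *Cry1* and *Tef*, and the promoter of *Cry1*, an inhibitor within the clock, is shown as an example with the E-box in capitals.
*Cry1*, chr10:85185005-85185304, minus strand: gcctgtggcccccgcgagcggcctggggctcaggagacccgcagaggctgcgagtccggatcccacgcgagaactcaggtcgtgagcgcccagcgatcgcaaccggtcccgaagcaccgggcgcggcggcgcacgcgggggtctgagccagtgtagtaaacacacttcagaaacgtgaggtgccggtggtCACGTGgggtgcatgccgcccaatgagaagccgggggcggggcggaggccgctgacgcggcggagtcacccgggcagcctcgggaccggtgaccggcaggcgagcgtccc

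Transcript levels of growth factor pathway genes differed by family. In the TGF beta, activin and BMP list 2 of 41 members were higher and 11 lower, with a median of -0.41. Among the lower members were 4 BMP ligands, *Bmp4* at 14.8 and 155 CPM (10.5-fold lower), *Bmp2* at 21.2 and 136 CPM, *Bmp6* at 9.62 and 49.3 CPM and *Bmp7* at 1.09 and 14.8 CPM. *Bmp4* had a log2 ratio of -1.85 in the depth window. The higher members were *Bmpr1b*, a type I BMP receptor (57.7 and 2.73 CPM, log2 4.40), and *Fstl1*, a secreted BMP antagonist (2747 and 1040 CPM). *Acvr1*, the receptor studied in the genetic form of heterotopic ossification, was at 91.0 and 55.7 CPM (log2 0.71) and *Tgfb3* at 54.7 and 30.0 CPM.

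Wnt pathway genes had 11 of 22 members higher and 2 lower, with a median of 0.63. Secreted modulators led them, *Sfrp2* at 748 and 18.9 CPM (39.7-fold), *Sfrp1* at 804 and 82.0 CPM, and the potentiator *Rspo2* at 24.8 and 0.933 CPM with its receptor *Lgr5* at 31.4 and 2.64 CPM. The lower pair was *Wnt11* (12.7 and 75.8 CPM) and *Tcf7l1* (74.7 and 151 CPM, log2 -0.50 in the depth window). *Sfrp2* was at 71.2 CPM in endothelial cells at 7 dpi, 9.52% of the mesenchymal level, and *Lgr5* at 5.31 CPM.

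Of the IGF and imprinted growth genes 7 of 24 were higher and 4 lower (median 0.50). Beside *H19*, *Mest* was at 201 and 25.1 CPM, *Plagl1* at 186 and 49.7 CPM and *Mirg* at 15.9 and 4.47 CPM. *Igf1*, a mitogen of tendon fibroblasts, was at 1193 and 389 CPM (3.07-fold), while *Igf2*, the neighbour of *H19*, stayed low at 2.57 and 0.257 CPM. The lower members were *Igfbp3* (48.9 and 189 CPM), *Igfbp6* (542 and 1305 CPM), *Igf2bp2* (30.5 and 61.5 CPM) and *Igf2bp3* (11.6 and 27.0 CPM). Of these *Igfbp6* (log2 -0.30), *Igf2bp2* (-0.98) and *Igf2bp3* (-0.99) were under 2-fold in the depth window. Among 30 other growth factors and receptors 10 were higher and 4 lower. The secreted factor *Ptn*, pleiotrophin, was at 635 and 16.9 CPM (37.5-fold), and *Nrg1*, neuregulin, at 50.5 and 3.02 CPM, against *Fgf2* at 25.9 and 102 CPM and *Egfr* at 530.5 and 1112 CPM. The calls for *Fgf2* (log2 -0.97) and *Egfr* (-0.49) were lost in the depth window. Notch genes had 0 of 8 higher and 3 lower, *Heyl* (3.82 and 19.1 CPM), *Hes1* (34.5 and 90.6 CPM) and *Notch1* (7.64 and 15.3 CPM). Only *Heyl* (log2 -1.33) stayed past 2-fold in the depth window, against -0.77 for *Hes1* and -0.93 for *Notch1*.

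Chemokine and inflammation genes were split, with 11 of 35 higher and 8 lower (median 0.19). *Saa3*, an acute phase protein, was at 400.0 and 12.2 CPM (32.9-fold), and *Tnfsf11*, the osteoclast factor RANKL, at 29.3 and 0.965 CPM. *Cxcl14* was lower at 428 and 1857 CPM, as was *Il6ra* at 27.9 and 118 CPM. Interferon-stimulated genes had 1 of 35 higher and 7 lower, with a median of -0.06 by CPM and 0.10 by TMM, close to the value over all genes. *Irf1* was at 148 and 499 CPM and *Ifit2* at 9.82 and 28.6 CPM (log2 -0.87 in the depth window), while *Ifi44*, at 9.49 and 1.67 CPM in mesenchymal cells, had 70.5 CPM in endothelial cells. Complement genes had 3 of 17 higher and 6 lower, with *C3*, the central component, at 472 and 1172 CPM on the lower side and *Masp1* at 55.6 and 8.78 CPM on the higher. *C3* was under 2-fold in the depth window (log2 -0.12).

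Matrix-degrading enzymes and their inhibitors had 10 of 32 members higher and 5 lower. *Timp1*, an inhibitor of metalloproteinases, was at 1073 and 33.5 CPM (32.1-fold), and its relatives *Timp3* (210.2 and 1067 CPM) and *Timp4* (2.67 and 31.5 CPM) were lower. In uninjured endothelial cells *Timp3* was at 1909 and *Timp4* at 1005 CPM. *Adam12* was at 287 and 17.9 CPM, *Adamts16* at 18.4 and 2.57 CPM, and *Mmp13*, the collagenase of growth cartilage, at 36.9 and 4.09 CPM. Integrin and laminin genes had 1 of 23 higher and 9 lower, with *Lama2* at 147 and 841 CPM, *Nid1* at 345 and 889 CPM and *Itgav*, the member called higher, at 219 and 93.5 CPM. Among basement membrane genes, *Lama2* stayed 2-fold lower in the depth window (log2 -1.24), *Nid1* (-0.41) did not, and *Itgav* was at 0.42.

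Metabolic and housekeeping lists had medians between -0.64 and 0.55. Glycolysis and hypoxia genes had 11 of 29 higher and 5 lower (median 0.26), with the lactate exporter *Slc16a3* at 30.0 and 1.32 CPM, *Pkm* at 571 and 110 CPM and *Hif1a* at 512 and 130 CPM, against *Hk2* at 155 and 372 CPM (log2 -0.97 in the depth window) and *Adm* at 61.7 and 260 CPM. Lipid and adipogenic genes had 14 of 29 lower and 3 higher (median -0.64). *Apod*, a lipid carrier of resting fibroblasts, was at 605 and 3861 CPM and *Apoe* at 140 and 746 CPM. *Cd36*, the fatty acid transporter, was at 7.34 and 63.5 CPM, with 2121 CPM in uninjured endothelial cells. *Fabp5* was higher, at 855 and 28.3 CPM, and endothelial cells had 870 and 698 CPM of it. Of the nuclear genes of oxidative phosphorylation 5 of 95 were higher and 0 lower (median 0.48), of proteasome genes 2 of 48 and 0 (0.55), and of ribosomal protein genes 1 of 81 and 0 (0.17). The shares called in these last lists lay below 10.3% by CPM, but with TMM 9 of 48 proteasome genes were higher, a share above the TMM background of 13.5%. Limb patterning genes, which mark position, had 4 of 22 higher and 2 lower, with *Pitx1*, the hindlimb factor, at 22.7 and 6.15 CPM and *Tbx4* at 4.55 and 9.65 CPM (log2 -0.79 in the depth window).

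Classes of cells were counted by marker UMIs after each cell was thinned to 2000 UMIs, which kept 6480 cells at 7 dpi and 4556 uninjured cells and left out 70 and 101. Cells with *Pi16* or *Dpp4*, the adventitial class, made up 28.3% (27.2 to 29.4) at 7 dpi and 28.2% (26.9 to 29.6) in the uninjured cells, a difference of 0.0760 percentage points with a half-width of 1.71. Of endothelial cells, 6.91% and 3.90% had such a UMI. Unthinned, the mesenchymal values were 57.1% and 42.6%. Cells with both *Ly6a* and *Tppp3*, the stem-like class, made up 19.9% and 28.7%, and endothelial cells reached 12.1% and 17.2%. The combined adventitial share held opposite differences of its markers, as *Pi16*+ cells were 27.0% at 7 dpi and 22.8% uninjured, and *Dpp4*+ cells 3.69% and 11.9%. The difference in the combined share changed sign with the thinning depth, at 0.818 percentage points with 1000 UMIs and -0.912 with 4000.

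The remaining marker classes were scarce in the uninjured mesenchymal cells, apart from the *Runx2* class. *Tnn*+ cells made up 25.3% (24.3 to 26.4) at 7 dpi and 0.110% (0.0356 to 0.256) in the uninjured cells, and 8.40% of endothelial cells at 7 dpi had a *Tnn* UMI. *Scx*+ cells were 5.09% and 0.307%, beside 1.73% of endothelial cells at 7 dpi, and *Tnmd*+ cells 9.29% and 1.34%, beside 3.95%. *Runx2*+ cells were 12.7% (11.9 to 13.5) and 5.42% (4.78 to 6.12), beside 2.47% and 0.542% of endothelial cells. For the chondrogenic class (a UMI of *Acan* or *Col2a1*), 13.0% (12.2 to 13.9) and 0.110% stood beside 8.89% (6.30 to 12.1) of endothelial cells at 7 dpi. Cycling cells were 3.81% (3.36 to 4.31) and 0.132% (0.0483 to 0.286). Endothelial cells at 7 dpi were at 5.19% (3.24 to 7.82), an interval that overlaps the mesenchymal one. With the broader endothelial definition of at least 1 *Cdh5* and no *Pdgfra* UMI, the 7 dpi endothelial shares were 14.1% for *Tnn*, 3.92% for *Scx*, 6.93% for *Tnmd*, 9.80% for the chondrogenic class, 4.18% for *Runx2* and 3.66% for cycling cells.

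**Figure D4:**
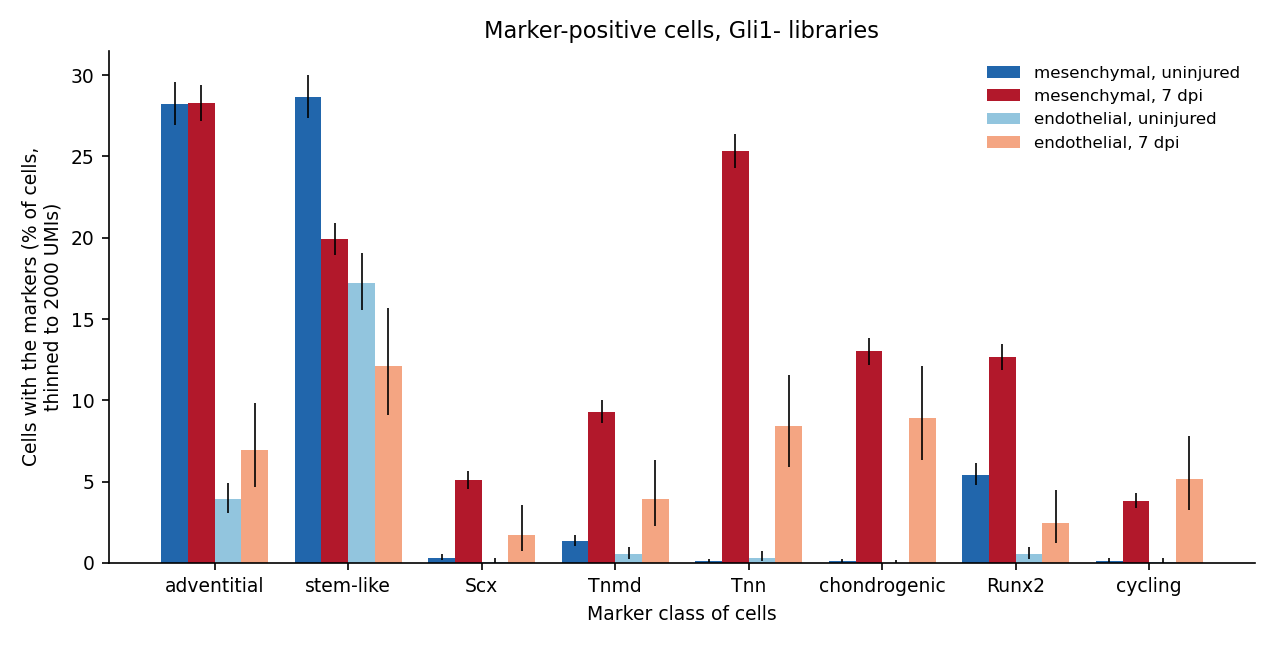
Bars are percent of cells with the markers of 8 classes after thinning to 2000 UMIs, for mesenchymal and endothelial cells of the uninjured and 7 dpi *Gli1*- libraries, with exact binomial 95% intervals. The *Tnn*, *Scx*, *Tnmd* and chondrogenic classes are near 0 in uninjured cells and at 25.3%, 5.09%, 9.29% and 13.0% at 7 dpi, while the adventitial class is at 28.3% and 28.2%.

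The genes called over all cells were counted again within classes, which are parts of the same cells. Among the 3743 adventitial cells at 7 dpi and the 1985 in the uninjured library, 976 of the 1094 higher genes and 1118 of the 1263 lower genes still passed 2-fold. Among the 2807 and 2672 cells without *Pi16* or *Dpp4* UMIs, 1048 and 1179 did. Within *Scx*+ cells 647 and 757 did, and within cycling cells 519 and 435, where the uninjured sums rest on 39 and 7 cells. *Col1a1* was at 19447 CPM and 2225 CPM in adventitial cells and at 16998 and 3072 CPM in the others. *Postn* had a log2 ratio of 4.75 (4.68 to 4.81) in adventitial cells, where the uninjured level was 124 CPM, and of 6.82 (6.70 to 6.95) in the others, where it was 31.5 CPM. At 7 dpi the levels of *Postn* in both classes were alike, at 3318 and 3563 CPM. *Inmt* was at 26.1 and 929 CPM in adventitial cells and at 28.4 and 1293 CPM in the others.

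**Figure D5:**
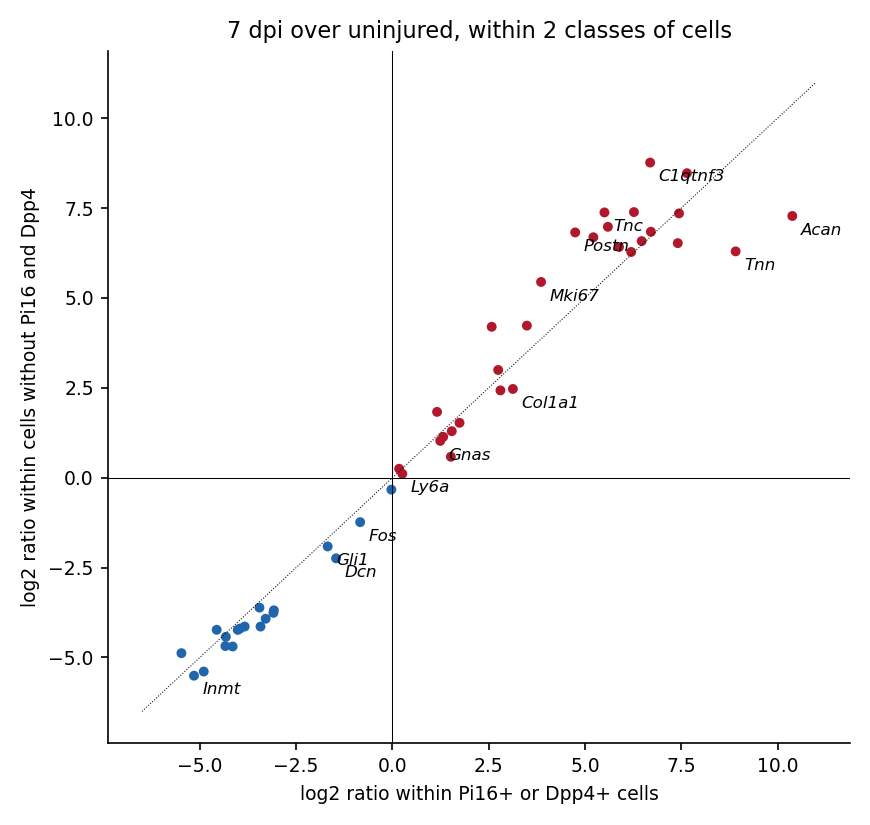
Points are 48 named genes, with the log2 ratio of 7 dpi over uninjured within cells that have a *Pi16* or *Dpp4* UMI against the ratio within cells that have neither. The dotted line marks equal ratios, and all 48 genes have the same sign in both classes, which is no independent support since most were chosen for their ratio over the same cells. *Acan* and *Tnn* rest on 1 and 9 UMIs in the uninjured adventitial cells.

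Cells with an *Scx* UMI, 1326 at 7 dpi and 39 in the uninjured library without thinning, differed in another way. In the 39 uninjured cells *Col1a1* stood at 20648 CPM, against 18255 CPM at 7 dpi (log2 -0.18, -0.21 to -0.15), and *Fmod*, a proteoglycan of mature tendon, at 2499 against 283 CPM. *Tnmd* was at 147 CPM at 7 dpi and 282 CPM in the uninjured cells. *Sox9* was at 110 CPM in 7 dpi and at 18.8 CPM in uninjured *Scx*+ cells, where it rests on 7 UMIs (log2 2.56, 1.51 to 3.87). *Acan* was at 250.3 CPM at 7 dpi and 0 uninjured, and *Runx2* at 97.8 CPM at 7 dpi and 105 CPM uninjured (log2 -0.10, -0.55 to 0.40). *Fmod* and *Tnmd*, which were higher at 7 dpi over all mesenchymal cells, were thus lower within *Scx*+ cells, and the mix of tenocytes and other cells with 1 *Scx* UMI was not resolved.

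The remaining libraries are given for orientation only, since the 21 dpi libraries hold female cells, the uninjured *Gli1*+ library cells of both sexes, and *Cntn5* in these 3 is under 3 CPM. *Postn* stood at 1498 CPM in *Gli1*- cells at 21 dpi, at 3196 CPM in *Gli1*+ cells at 7 dpi and at 183 CPM in uninjured *Gli1*+ cells. *Mki67* was at 10.03 CPM in *Gli1*- cells at 21 dpi and at 48.6 CPM in *Gli1*+ cells at 7 dpi. *Col2a1* was at 694 CPM and *Saa3* at 6769 CPM in *Gli1*- cells at 21 dpi, both above the 7 dpi level. *Inmt* (31.7 CPM) and *Ccl11* (55.4 CPM) at 21 dpi stayed far below their uninjured *Gli1*- levels, as did *Gsn* at 2973 CPM. *Dcn*, at 7985 CPM at 21 dpi, lay between the 7 dpi and uninjured levels.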

How the data were processed

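UMI counts were deposited by the authors as filtered gene-by-barcode matrices, 1 per library, without normalization or cell annotation. Per the labels, reads were aligned to mm10 with Cell Ranger 3.1.0 and STAR, whereas the matrix headers name Cell Ranger 9.0.0. Libraries were 10x Chromium 3' v3, and the annotation release is not given in the sources used here. Counts were read in Python 3.11.15 (scanpy 1.11.5, pandas 2.3.3, scipy 1.17.1), filtered and classed as described, and summed per library. Genes with a mean of at least 5 CPM were compared, and 2-fold was the call. No p-value was computed, since each group is 1 library. Intervals are exact 95% binomial or Poisson intervals. TMM factors came from edgeR 4.0.16. Marker shares used cells thinned to 2000 UMIs. Doublets were kept in the values reported, and Scrublet removal was 1 of 15 alternatives. Scripts were tested on simulated data.

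Text names the 15 largest differences in each direction with a mean of at least 50 CPM, and defining genes of each list. It also names up to 4 tested genes at each end of a list, whether or not they passed 2-fold. The other genes given were chosen after their values were seen. Members and lists were chosen with earlier results of these data known. The other 4 libraries were used only for orientation. Promoter sequences are RefSeq records on GRCm38.p6, the patch series of mm10, matched by symbol. Some genes are not reported here.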

Additional observations from a re-analysis of the deposited data

Results flagged for a closer look

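The following 4 genes were past 2-fold between 7 dpi and uninjured in both fractions, in opposite directions in *Gli1*- and *Gli1*+ mesenchymal cells. Other genes had opposite signs but were under 2-fold in *Gli1*+ cells, such as *Mkx* (log2 2.01 in *Gli1*- and -0.84 in *Gli1*+ cells) and *Tnmd* (2.83 and -0.11). The difference between the fractions was not tested, as each is 1 library per time point, and the uninjured *Gli1*+ library also differed in sex-linked transcripts and *Cntn5*. *Arntl* had a log2 ratio of 1.81 in *Gli1*- cells and of -2.10 in *Gli1*+ cells (20.8 CPM at 7 dpi and 89.4 CPM uninjured). For *Col2a1* the ratio was 6.78 in *Gli1*- cells, against -1.17 in *Gli1*+ cells (17.7 and 39.9 CPM). *Fmod* stood at 1.17 in *Gli1*- cells and at -1.75 in *Gli1*+ cells (180.2 and 607 CPM). *Myh11* went the other way, with -1.85 in *Gli1*- cells and 1.07 in *Gli1*+ cells (9.27 and 4.42 CPM).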

How the results depend on the processing

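No paired analysis was possible because each group is 1 library without a replicate number. The count of genes at least 2-fold higher at 7 dpi (1094) and of genes at least 2-fold lower at 7 dpi (1263) became 4380 and 4378 without a filter on low levels, 648 and 730 with a mean of at least 20 CPM, which tests fewer genes, and 707 and 725 in cells of 3000 to 10000 UMIs, where the cause was not tested. Of 216 named genes beyond 2-fold, 214 kept their sign in cells of 3000 to 10000 UMIs, where the log2 ratio of Col4a2 (0.0681) and the log2 ratio of Fgf18 (0.12) reversed, and 215 kept it in cells without UMIs of other cell types, where the log2 ratio of Bglap (0.25) reversed. The mesenchymal shares became 31.3% and 34.3% when the rule was read after thinning. Past 2-fold remained 207 of 216 named genes with TMM, 214 with doublets removed and 182 of 214 when the rule was read after thinning. Share differences moved with thinning to 1000 and to 4000 UMIs, for adventitial cells from 0.0760 to 0.818 and -0.912, a change of sign within the interval, for stem-like cells from -8.74 to -3.52 and -17.5 percentage points, for *Scx* from 4.79 to 2.40 and 8.59, for *Tnmd* from 7.95 to 4.35 and 12.5, for *Tnn* from 25.2 to 16.3 and 37.6, for the chondrogenic class from 12.9 to 8.01 and 22.1, for *Runx2* from 7.23 to 4.58 and 12.7, and for cycling cells from 3.68 to 1.68 and 6.67. With TMM the calls in lists changed by more than 1.5 times for proteasome (2 to 9), oxidative phosphorylation (5 to 11), immediate early (1 to 2) and ribosomal genes (1 to 2) among the higher, and for integrins and laminins (9 to 5), matricellular genes (4 to 2), growth factors (4 to 2), Wnt (2 to 1) and limb patterning (2 to 1) among the lower. The median of the GNAS and PKA list changed sign in some alternatives (-0.32 to 0.06), as did those of the complement, interferon and metalloproteinase lists. Endothelial values with at least 2 *Cdh5* and 2 *Pecam1* UMIs were chosen after seeing the data. An alternative in female cells was not run, since the libraries hold almost no *Xist*. Depth limits genes at a few UMIs in the uninjured sum.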
